A study of Mus musculus with 34 samples.

Results

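Distal nucleosome clusters are stretches where nucleosome calls of the meiotic fraction lie close together, far from any protein-coding gene. They were chosen from measured values: SV129 calls on chromosomes 1 to 19 were joined where 100 bp or less apart, and joined regions of 300 bp or more were kept where a WT call overlapped them and the nearest protein-coding gene lay more than 10 kb away. The rule gave 2721 distal clusters of 13763 clusters with WT support, 19.8%. The others comprised 6179 at a gene end (within 500 bp of either annotated end), 4035 in a gene body and 828 outside genes but within 10 kb. A further 761 of 3482 wide distal regions had no WT call and were not taken. Presence of SV129 and WT nucleosome calls in the meiotic fraction is therefore given by the rule and is no finding.

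The data are 34 paired-end ATAC-seq libraries of mouse male germ cells in 12 groups; in this assay the transposase Tn5 cuts exposed DNA. The 3 backgrounds were SV129, C57BL6 GCN5+/+ (called WT) and C57BL6 GCN5-/- (called cKO), in which Stra8-CRE removed homozygous floxed alleles of Gcn5, a histone acetyltransferase encoded by Kat2a. Stra8 is switched on in germ cells around the entry into meiosis, so other cells of the testis keep Gcn5. Each background was sampled as the meiotic fraction (MS, labelled Meiotic Spermatid), round spermatids (RS), spermatids that elongate and condense (ES) and sperm of the cauda epididymis (Sp). Every WT and cKO group had 2 libraries, SV129 sperm had 6, and the other SV129 groups had 4 each, as technical repeats of 2 biological replicates. The protocol describes adult SV129 males of 8 to 12 weeks, 11 mice pooled per collection and fractions of at least 85% purity, and gives no separate age for the C57BL6 mice. The deposited data of a group are a list of nucleosome calls, each 150 bp wide, and a list of subnucleosome peaks, called open sites here.

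Nucleosomes wrap DNA around histones, and distal stretches with an open site between nucleosomes are the usual form of enhancers and of promoters of non-coding RNAs. After meiosis most histones of the male germ line are acetylated, evicted and replaced by transition proteins and then by protamines, and Gcn5 is one of the enzymes that place acetyl groups on histone H3. The study asked how loss of Gcn5 bears on nucleosomes during this exchange.

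Every group has a single list, so replicate error is unknown and no difference below was tested. Shares carry Wilson 95% intervals, which cover counting error only, and SV129 and WT, both with intact Gcn5, are set beside cKO throughout. Their difference mixes strain, depth and library number. The depth of the libraries is unknown, and in bulk material a site present in fewer cells and a weaker site cannot be told apart. List length varied widely: on chromosomes 1 to 19 the nucleosome lists held 7050 calls (WT Sp) to 581954 calls (WT ES), and the subnucleosome lists held 401 peaks (cKO ES) to 56048 peaks (WT RS). As a check on the cell type, 13 of 14 meiotic germ cell genes (all but Spo11) had an open site at a gene end in the SV129 and WT MS lists. In the cKO MS list 12 of 14 had one. At RS the same genes were open in 12 (SV129), 13 (WT) and 3 (cKO) of 14. Of 10 spermatid genes 5, 6 and 5 were already open at MS in SV129, WT and cKO. In SV129 and WT the meiotic genes therefore do not tell MS from RS. Of 12 Sertoli or Leydig cell genes 2, Amh and Cyp11a1, were open in the SV129 and WT MS lists and 0 in the cKO MS list. Cyp11a1 was also open in the WT sperm list. None of 8 blood or immune cell genes was open in any list. The part of somatic cells in the distal clusters was not tested.

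The distal clusters were short. Their median width was 425 bp (quartiles 380 and 570 bp, largest 4760 bp), and each held a median of 5 SV129 calls, from 2 to 121, and 4 WT calls. Calls of 150 bp often overlap within such widths, so a number of calls is not a number of separate nucleosomes. Gene end clusters were wider, with a median of 540 bp and 8 calls. Together the distal clusters covered 1.36 Mb, 0.11% of the 1240 Mb of autosomal sequence more than 10 kb from a protein-coding gene, which itself made up 50.4% of the autosomes. The median distance to the nearest protein-coding gene was 65.6 kb, 1564 clusters lay beyond 50 kb, 594 beyond 200 kb and 182 beyond 500 kb, and the farthest lay 1832 kb away. At the width threshold 24 regions were 300 bp wide and 3 just outside it were 295 bp wide. At the distance threshold the nearest clusters inside lay 10029 and 10047 bp from a gene and the nearest outside lay 9968 and 9982 bp away.

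Some distal clusters sat on promoters of non-coding RNAs, whose DNA can be shown. RefSeq promoter windows (build GRCm38.p6, from 250 bases before to 50 bases after a start) were matched to clusters by position; such windows were at hand for the chromosomes of 2531 clusters. Of these, 215 overlapped a promoter window of a non-coding gene, 607 lay within a non-coding gene away from such a window, and 1709 overlapped no gene of the table. The sequences below run 5′ to 3′ on the gene's strand, with CpG dinucleotides in capitals. The first pair shows promoters of 2 of the 4 clusters that held a whole window and were open at MS and RS in SV129, WT and cKO and in SV129 sperm. Clusters open in any ES list were left out of this set. Chaserr (chr7:73558346-73558645, minus strand, 16.6 kb from Chd2) is a long non-coding RNA known to repress its neighbour Chd2, a chromatin remodeller. 1700096K18Rik (chr5:25529768-25530067, plus strand, 11.4 kb from Cct8l1) is a long non-coding RNA gene.
Chaserr: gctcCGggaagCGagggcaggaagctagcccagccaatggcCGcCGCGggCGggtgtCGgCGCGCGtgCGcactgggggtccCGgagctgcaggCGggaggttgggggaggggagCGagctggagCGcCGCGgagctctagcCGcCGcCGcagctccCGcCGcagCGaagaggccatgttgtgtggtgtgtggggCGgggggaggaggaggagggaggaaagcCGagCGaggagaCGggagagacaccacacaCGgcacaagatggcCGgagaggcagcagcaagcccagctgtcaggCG
1700096K18Rik: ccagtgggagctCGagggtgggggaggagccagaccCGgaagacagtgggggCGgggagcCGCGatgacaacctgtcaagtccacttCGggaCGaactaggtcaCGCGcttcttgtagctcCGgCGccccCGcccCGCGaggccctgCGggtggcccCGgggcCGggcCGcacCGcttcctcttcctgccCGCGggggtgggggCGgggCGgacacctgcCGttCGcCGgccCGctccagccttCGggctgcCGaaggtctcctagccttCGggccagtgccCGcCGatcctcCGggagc

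The next pair shows promoters of the 2 widest of 4 such clusters that were open at MS and RS in SV129 and WT and in no cKO list. They belong to the long non-coding RNA genes 2310015A10Rik (chr12:80132795-80133094, minus strand, 15 kb from Gm52006) and Gm36128 (chr12:15051454-15051753, plus strand, 740 kb from Trib2).
2310015A10Rik: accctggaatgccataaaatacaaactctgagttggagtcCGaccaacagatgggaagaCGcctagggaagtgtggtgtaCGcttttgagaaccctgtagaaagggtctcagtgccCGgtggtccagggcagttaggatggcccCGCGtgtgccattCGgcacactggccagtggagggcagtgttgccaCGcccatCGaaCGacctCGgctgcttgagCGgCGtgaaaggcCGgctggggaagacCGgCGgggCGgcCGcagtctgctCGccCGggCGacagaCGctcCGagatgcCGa
Gm36128: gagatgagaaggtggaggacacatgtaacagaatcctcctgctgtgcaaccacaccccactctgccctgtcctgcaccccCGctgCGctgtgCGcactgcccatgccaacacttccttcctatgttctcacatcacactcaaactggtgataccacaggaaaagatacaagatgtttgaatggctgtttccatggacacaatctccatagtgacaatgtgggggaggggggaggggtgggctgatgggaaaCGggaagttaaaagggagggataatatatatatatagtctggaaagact

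The last pair shows promoters of the 2 widest of 8 such clusters with nucleosome calls but no open site in any MS list, for the long non-coding RNA genes 1700049E15Rik (chr6:147689991-147690290, plus strand, 56.9 kb from Ccdc91) and A330032P22Rik (chr10:3717908-3718207, plus strand, 21.6 kb from Plekhg1). Clusters open in any ES list were left out of this set too.
1700049E15Rik: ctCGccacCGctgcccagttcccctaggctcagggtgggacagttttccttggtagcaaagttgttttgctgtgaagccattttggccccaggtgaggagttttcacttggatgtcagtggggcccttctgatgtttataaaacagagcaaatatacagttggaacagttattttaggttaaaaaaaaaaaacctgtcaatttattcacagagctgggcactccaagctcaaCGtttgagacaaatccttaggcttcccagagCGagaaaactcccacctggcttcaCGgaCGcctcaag
A330032P22Rik: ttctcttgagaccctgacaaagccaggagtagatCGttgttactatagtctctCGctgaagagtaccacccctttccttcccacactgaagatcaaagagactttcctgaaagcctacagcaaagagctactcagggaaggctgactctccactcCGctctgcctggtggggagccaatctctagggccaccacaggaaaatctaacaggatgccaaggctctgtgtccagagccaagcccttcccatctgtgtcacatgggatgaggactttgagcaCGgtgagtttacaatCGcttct

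The 6 promoters differed in CpG number. Chaserr held 30 CpG in 300 bases and 1700096K18Rik held 33. In the pair without an open site in cKO, 2310015A10Rik held 24 and Gm36128 held 4, and in the pair without an open site at MS the numbers were 6 and 5. So few promoters do not show whether CpG number goes with state. At Chaserr, open sites covered 359, 557 and 412 bp of the 730 bp cluster at MS in SV129, WT and cKO, and 421, 554 and 198 bp at RS. Open sites were also listed there in sperm of SV129 (393 bp) and WT (227 bp) and not of cKO. Nucleosome calls at Chaserr covered 660 bp at RS in SV129, 635 bp in WT and 0 in cKO. The cluster thus had an open site but no nucleosome call in the cKO RS lists. At Gm36128, open sites covered 236 bp (SV129) and 388 bp (WT) of 765 bp at MS and 146 and 177 bp at RS. Its nucleosome calls covered 670, 515 and 400 bp at MS and 345, 690 and 150 bp at RS in SV129, WT and cKO. At 1700049E15Rik, nucleosome calls covered 905, 903 and 505 bp of 990 bp at MS and 0 bp in all 3 RS lists. The 6 promoters were taken from among the wider clusters of their state with their values known, so their states are descriptions.

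Open sites inside the distal clusters were frequent at MS. In SV129 1421 clusters, 52.2%, overlapped an open site, and in WT 1489, 54.7%. Over all 13763 clusters the shares were 69.6% and 72.9%. In both intact lists 1275 distal clusters were open, 46.9% (interval 45 to 48.7), against 66.6% of all clusters and 87.1% of gene end clusters. The distal share was nearer to those of clusters in gene bodies, 52.3%, and outside genes within 10 kb, 48.9%. In 1086 distal clusters, 39.9%, neither intact list had an open site, so in SV129 and WT these were stretches of nucleosome calls without a listed open site. Open in SV129 only were 146, 5.37%, and in WT only 214, 7.86%. These last counts are for distal clusters alone, so they do not show whether such states are more common there than at other clusters.

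In cKO, 901 distal clusters, 33.1% (31.4 to 34.9), had an open site at MS, lower than in both intact lists, and against 52.5% of all clusters. The clusters were chosen by MS calls of the same SV129 and WT groups, and the part of this choice in the lower cKO share was not tested. Of the 901, 865 (96%) were also open in both intact lists, and 5 were open in cKO alone. Of the 1275 open in both intact lists, 67.8% (65.2 to 70.4) were open in cKO, against 83.6% of gene end clusters. Open in both intact lists and not in cKO were 410, 15.1% of distal clusters, which is close to the 15% of all clusters. Nucleosome calls of the cKO MS list were present in 1982 distal clusters, 72.8% (71.1 to 74.5), against 82.4% of all clusters and 92% of gene end clusters. The cKO MS nucleosome list, with 308818 calls, was about as long as that of WT, with 318431, while its subnucleosome list was shorter, with 15587 peaks against 34765 in WT and 31983 in SV129.

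The deposited peak score, available for WT and cKO on an unstated scale, was set beside these shares. WT MS peaks inside distal clusters had a median score of 31.3, against 42.6 at gene end clusters and 22.2 in the whole list. Of 1356 such peaks, 843, 62.2%, overlapped a cKO MS peak; those had a median score of 42.8 and the others 18.6. When the WT list was divided into 4 score classes of equal size, the share of distal peaks found in cKO was 11.2%, 30.9%, 61.6% and 92.3% from the lowest class to the highest. At gene end clusters the shares were 4.92%, 29.9%, 69.1% and 97.3%. The order of the classes was the same at both kinds of cluster, and the shares within a class lay closer together than the 62.2% and 79.1% without classes.

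The open sites were narrow and central. In SV129 1324 MS open sites were centred inside distal clusters, and 104 clusters overlapped several. Their median width was 169 bp, against 275 bp at gene end clusters, and the median distance to the cluster's centre was 57.5 bp, with 57.9% within 75 bp. At gene end clusters the median distance was 99.5 bp. In gene bodies the median width was 195 bp and the median distance 73.5 bp, with 50.8% within 75 bp. Outside genes within 10 kb the values were 170 bp, 64.5 bp and 53.8%. Narrow and central open sites were thus not particular to distal clusters. In distal clusters WT open sites were 191 bp wide and cKO ones 149 bp (medians).

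Nucleosome calls lay in a peak on either side of the distal open sites. Around 1274 SV129 MS open sites in distal clusters (clusters open at ES, described later, left out), SV129 call centres were densest 110 bp before and 150 bp after the site's centre. Their density was 30.4 per 100 sites and 20 bp at 100 to 200 bp from the centre, 19.3 within 40 bp of it, and 3.73 at 400 to 500 bp. WT gave 26.4, 16 and 4. In cKO the flanks held 15.8 and the centre 5.97, so the flanks exceeded the centre 2.65 times, against 1.57 times in SV129 and 1.65 in WT. At gene end clusters the centre was denser than the flanks in SV129 (35.2 and 27.9), about equal to them in WT (27.3 and 28.3) and less dense in cKO (15.1 and 19.8), so the ratio of flanks to centre was lower than at distal sites in each background. At RS the flanking densities at the same distal sites were 7.82, 9.92 and 1.75 in SV129, WT and cKO, and the central ones 5.18, 10.6 and 1.37. In WT the centre was thus slightly denser than the flanks at RS. Since the sites were taken from the SV129 list and the clusters from SV129 and WT calls, the heights of the SV129 and WT curves at MS follow in part from the choice.

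**Figure D1:**
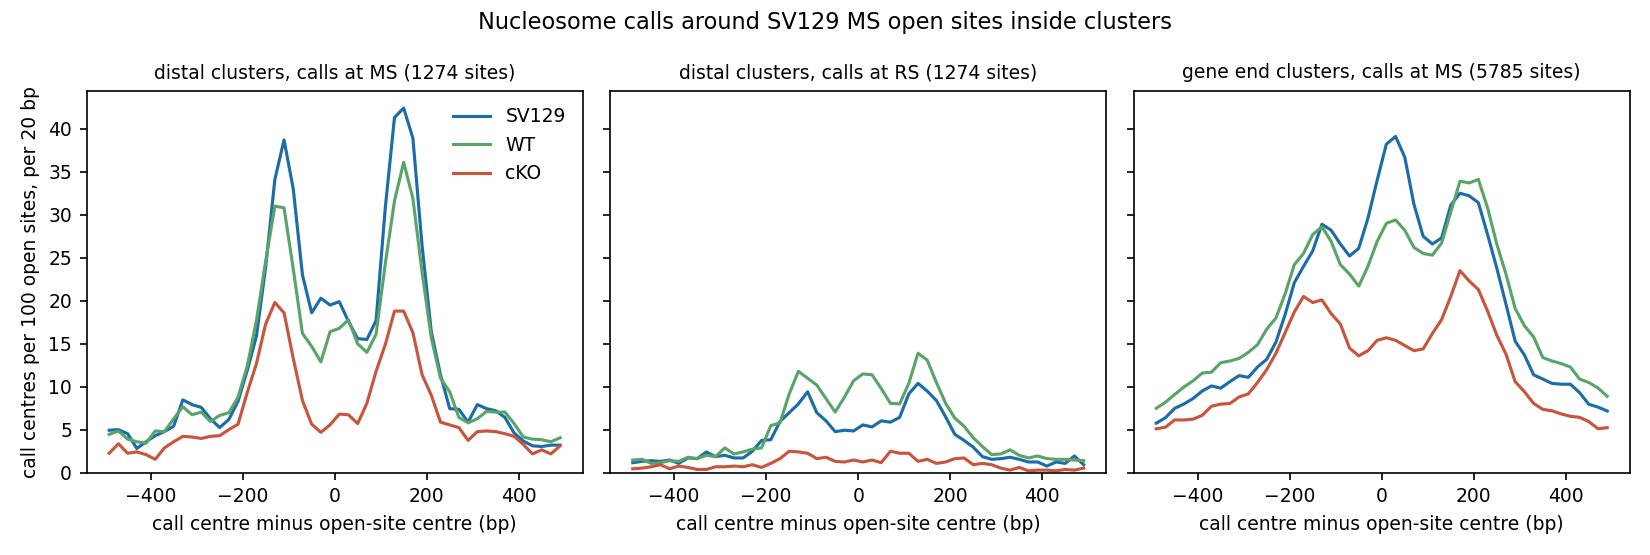
Nucleosome call centres per 100 open sites and 20 bp (vertical axis) against their distance in bp from the centre of SV129 MS open sites (horizontal axis), for distal clusters at MS and RS and for gene end clusters at MS. Lines stand for SV129, WT and cKO; at distal sites at MS the calls lie in a peak on either side, and the flanks of the cKO line are below the others at MS and RS.

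The rule gives every distal cluster an SV129 and a WT call at MS, so lower shares in these lists at later stages follow in part from the choice. At RS nucleosome calls were present in 1187 distal clusters in SV129, 43.6%, and 1254 in WT, 46.1%, against 64% and 64.2% of all clusters. Both intact lists had one in 857, 31.5% (all clusters 54.4%, gene end clusters 78.9%). In cKO they were present in 470, 17.3% (15.9 to 18.7), against 33.3% of all clusters. The cKO share lay below both intact shares. The cKO RS list held 205827 calls and that of SV129 held 228634. Of the 857, 283 (33%) also had a call in cKO, against 56.2% of gene end clusters, and 93 distal clusters, 3.42%, had a call in cKO alone, against 2.43% of all clusters. A call in both intact lists at RS, and in both at neither later stage, was present in 28% of distal clusters. That share was 32.2% in gene bodies and 23.8% outside genes within 10 kb. For calls of cKO at RS alone the shares were 9.56%, 10.5% and 8.82% in the same order. Low shares at RS were thus not particular to distal clusters.

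Open sites at RS were seen in 748 distal clusters in SV129, 27.5%, and in 1089 in WT, 40% (all clusters 51.7% and 62.3%). In both intact lists 697 were open, 25.6% (all clusters 50.5%). In cKO 138 were open, 5.07% (4.31 to 5.96), against 15.5% of all clusters, and 136 of the 138 were open in both intact RS lists. None was open in cKO alone. An open site in both intact lists at RS, and in both at neither later stage, was present in 24% of distal clusters. That share was 28.6% in gene bodies and 25.2% outside genes within 10 kb. For open sites of cKO at RS alone the shares were 3.9%, 5.72% and 4.35% in the same order. Of the 1275 clusters open in both intact MS lists, 643 (50.4%) were open in both intact RS lists, against 86.4% of gene end clusters. The cKO RS subnucleosome list had 4038 peaks, against 28935 in SV129 and 56048 in WT, and 2 of 10 spermatid marker genes were open in it, against 10 in SV129 and 9 in WT. The part of list length in the low cKO share was not tested.

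By score, WT RS peaks inside distal clusters were found in cKO in 13.8% of cases (142 of 1031). From the lowest to the highest of 4 score classes the share was 0.645%, 2.59%, 3.28% and 33.3%. At gene end clusters 30.8% were found in cKO, and by class 0%, 0%, 5.29% and 46.7%. In the highest class the gap to gene end clusters thus remained at RS, while clusters in gene bodies, at 35.5%, lay near the distal ones. Peaks also present in cKO were thus mostly among the highest scores of the WT list.

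The state at MS went with the state later. Nucleosome calls were present in both intact RS lists in 42.9% (40.2 to 45.6) of the distal clusters open in both intact MS lists and in 20.1% (17.8 to 22.6) of those open in neither. In the cKO RS list the shares were 21.6% and 13.6%. Open sites in both intact RS lists were present in 50.4% and 1.66%. The clusters open at MS were somewhat wider, with a median of 460 bp against 400 bp.

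At ES 559 distal clusters held a nucleosome call in the SV129 list, 20.5%, 469 in the WT list, 17.2%, and 514 in the cKO list, 18.9% (all clusters 29.7%, 25.1% and 29.5%). The ES nucleosome lists were the longest of all, with 476536 to 581954 calls. The cKO value lay between the intact ones. The intact lists overlapped little: of the distal clusters with an SV129 call at ES, 27% had one in WT, against 72.2% at RS. For all clusters but the distal ones these shares were 34.7% and 87.1%, so the overlap was also lower at ES there. Calls in both intact ES lists were present in 151 clusters, 5.55%, against 9.98% of all clusters. The ES lists covered 8.28% (SV129), 6.51% (WT) and 7.43% (cKO) of the distal clusters' sequence, and 1.4%, 1.72% and 1.46% of all distal sequence.

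Open sites at ES were rare. They were listed in 40 distal clusters in SV129, 33 in WT and 30 in cKO, which is 1.47%, 1.21% and 1.1%, above the 0.523%, 0.436% and 0.45% of all clusters. The 40 clusters include all of those in WT and cKO, and 29 were open in all 3 lists.

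In sperm, nucleosome calls were present in 107 distal clusters in SV129, 3.93%, and 71 in WT, 2.61% (all clusters 9.2% and 5.85%). Both intact lists had one in 56, 2.06%, against 2.9% of all clusters. In cKO they were present in 296, 10.9% (9.76 to 12.1), against 31.1% of all clusters and 49.2% of gene end clusters. In cKO sperm alone a call was present in 210, 7.72%, against 21.8% of all clusters. The cKO sperm nucleosome list is far longer than the others, with 340109 calls against 11846 in SV129 and 7050 in WT. It covered 5.18% of the distal clusters' sequence and 1.07% of all distal sequence, a ratio of 4.86. The SV129 list covered 3.23% and 0.0333%, a ratio of 97. Relative to distal sequence as a whole, the calls of cKO sperm were thus spread more widely. The clusters were chosen from SV129 MS calls. Of the 40 clusters open at ES, described later and of uncertain value, 97.5% had an SV129 sperm call, against 2.54% of the others. Their part in the ratios was not tested. Of the 296 clusters, 247 (83.4%) had a call in cKO at MS and 111 (37.5%) at RS, against 95.5% and 59.3% of the gene end clusters with a cKO sperm call. The part of list length was not tested.

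In sperm 106 distal clusters were open in the SV129 list, 3.9%, 54 in the WT list, 1.98%, and 39 in the cKO list, 1.43%. Over all clusters the shares were 24.1%, 9.54% and 4.79%, and at gene end clusters 44.4% were open in SV129. Both intact sperm lists were open in 48, 1.76%, against 7.97% of all clusters. Of the 54 in WT and the 39 in cKO, 28 each were among the 40 clusters open at ES; without those 40 the shares were 2.69% in SV129, 0.97% in WT and 0.41% in cKO. Distal clusters lay below clusters in gene bodies (9.81% open in SV129, 20.2% with a call in cKO) and those outside genes within 10 kb (8.45% and 15.5%) in these measures. The order was otherwise for calls in both intact sperm lists, at 2.06% of distal clusters, 1.56% in gene bodies and 1.45% outside genes. Without the 40 clusters open at ES the distal share was 0.783%. The shares of the other kinds were not recomputed in this way, so the order rests on clusters of uncertain value. For open sites in cKO sperm the shares were 1.43% of distal clusters, 1.71% in gene bodies and 1.33% outside genes, whose intervals overlap.

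**Figure D2:**
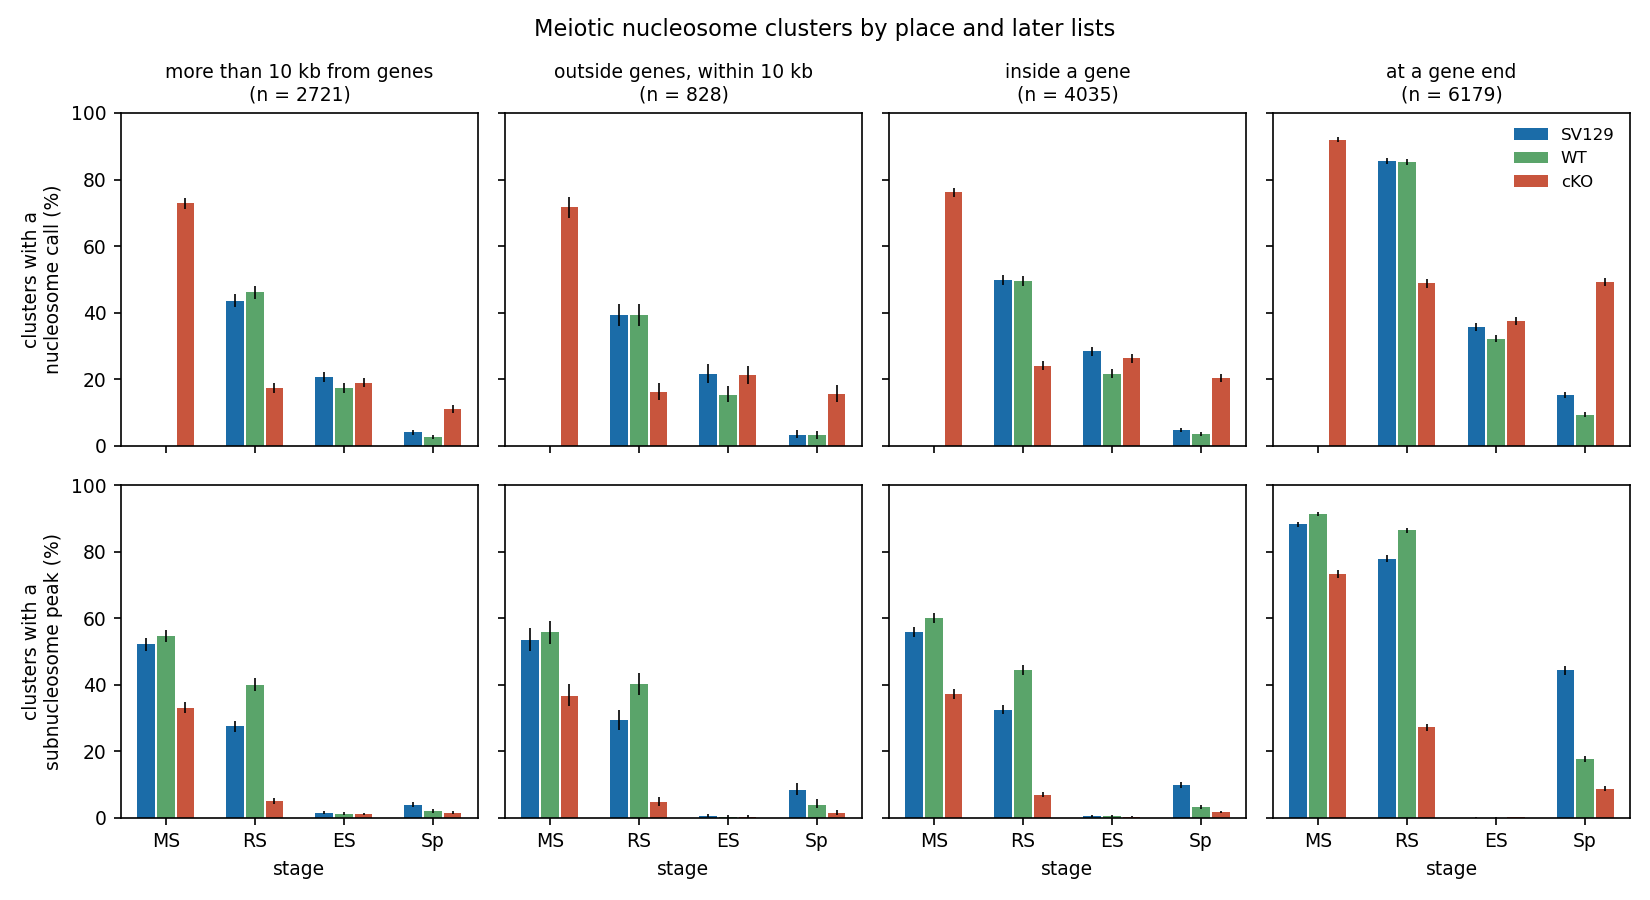
Share of clusters in percent (vertical axes) with a nucleosome call (upper panels) or a subnucleosome peak (lower panels) at each stage (horizontal axes), for 4 places of the clusters, with bars for SV129, WT and cKO and Wilson 95% intervals; SV129 and WT nucleosome shares at MS are left out because the rule sets them. Gene end clusters have higher shares than the 3 other kinds in every panel except for open sites at ES, and distal clusters have the lowest open shares in SV129 and WT sperm.

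Followed as a course, 830 distal clusters, 30.5%, had no nucleosome call in SV129 or WT at any stage after MS. A call at RS but not later was present in 992, at RS and ES in 480, at ES alone in 297 and at all 3 later stages in 95. These are 36.5%, 17.6%, 10.9% and 3.49%. The shares were 30.1%, 24.8%, 12.1% and 4.21% in gene bodies and 30.1%, 17.5%, 10.9% and 3.02% outside genes within 10 kb. At gene ends they were 33.4%, 38.6%, 2.95% and 12.7%. In cKO, 1766 clusters, 64.9%, had no call after MS. The shares without a call after MS, intact and cKO, were 26.4% and 50.9% for clusters in gene bodies and 36.8% and 58.9% outside genes within 10 kb. At gene ends they were 4.92% and 22.9%. The intact distal share thus lay between those of the first 2 kinds, and the cKO distal share above those of all other kinds. In cKO, calls at RS alone were present in 260 distal clusters, at ES alone in 300, in sperm alone in 134 and at all 3 stages in 64. Sperm alone was 4.92% of distal clusters, 8.15% in gene bodies, 8.33% outside genes within 10 kb and 12.8% at gene ends. These figures compare 2 intact lists with 1 cKO list, which raises the intact count. In single lists at RS, clusters without either kind of mark numbered 1313 in SV129 and 1197 in WT, against 2187 (80.4%) in cKO. At gene end clusters that share was 40.6% in cKO and 8.63% in SV129.

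The gap to gene end clusters was also present among clusters of like width. Among clusters of 300 to 449 bp, 35.5% of 1576 distal and 73.4% of 1984 gene end clusters were open in both intact MS lists. For nucleosome calls in both intact RS lists the shares were 26.1% and 65.6%, and for cKO sperm 8.31% and 36.1%. Calls in both intact sperm lists were rare in either kind, 1.78% and 2.02%.

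The 40 clusters open at ES stood apart. Of the 29 distal clusters found in all 12 nucleosome lists 24 were open in all 3 ES lists, and 22 clusters were in all 24 lists. They made up 35 of the 56 distal clusters with a call in both intact sperm lists and 28 of the 48 open there. Nucleosome calls were present in 97.5% of them in SV129 sperm, 87.5% in WT sperm and 92.5% in cKO sperm, and in cKO RS in 77.5%. In the 2681 others, the sperm shares were 2.54%, 1.34% and 9.66%, and both intact sperm lists had a call in 21, 0.783%. Sharing between the intact sperm lists thus rested mainly on the 40, while nucleosome calls in cKO at RS changed little without them (16.4%). They held 26 of the 138 distal clusters open in cKO at RS, where the share without them was 4.18%.

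**Figure D3:**
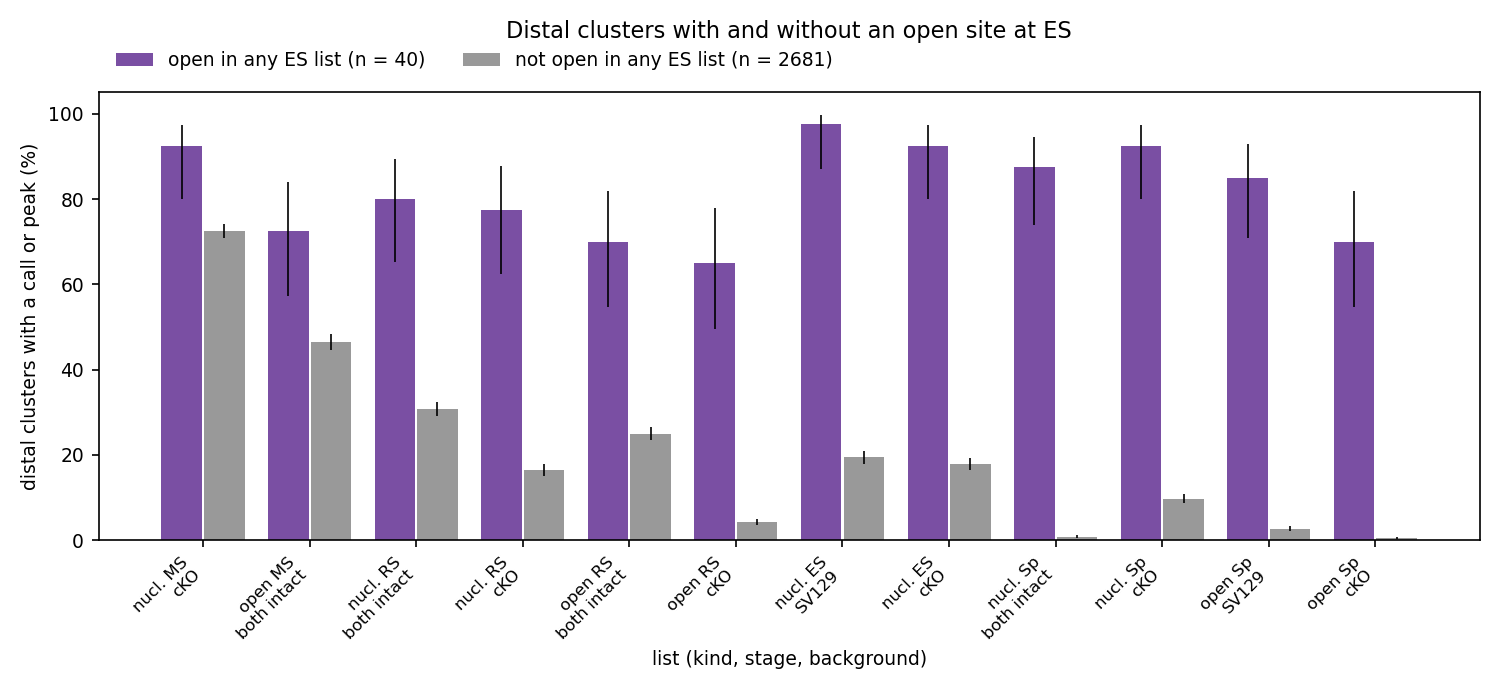
Share in percent (vertical axis) of the 40 distal clusters with an open site in any ES list and of the 2681 others that have a call or peak in 12 list combinations (horizontal axis), with Wilson 95% intervals. The 40 are at 65% or more throughout, while the others are at 9.66% or less in the sperm lists.

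The 40 clusters lay on 16 chromosomes, and 22 of them fell in 5 loci: 9 at 19.78 to 20.82 Mb of chromosome 8, 6 at 3 to 3.035 Mb of chromosome 9, 3 at 98.66 to 98.67 Mb of chromosome 2, and 2 each at 19.42 Mb of chromosome 14 and 39.84 to 39.85 Mb of chromosome 17. These include the distal clusters with the most calls. The largest by calls, chr1:24611657-24616196 (4540 bp, 23.7 kb from Col19a1), spans the pseudogenes Gm10222 and Gm10925, which resemble mitochondrial DNA. It held 121, 119 and 119 calls at MS in SV129, WT and cKO and 120, 118 and 94 in sperm, and open sites covered at least 3903 bp of it in every list. The cluster was thus nearly filled at all stages. The widest, chr17:39844087-39848846 (4760 bp, 102 kb from Esp38), spans Rn18s-rs5, a relative of the ribosomal 18S RNA gene, and held 82, 85 and 81 calls at MS and 102, 130 and 85 in sperm. The cluster chr2:98666307-98667346 (1040 bp, 1035 kb from Lrrc4c) had 22 to 25 calls in every one of the 12 nucleosome lists. Reads from near-identical copies elsewhere, including mitochondrial or repeated DNA, cannot be told apart from reads of these places, so their values are uncertain.

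Some clusters with many calls at MS differed between stages. The cluster chr7:144954777-144956486 (1710 bp, 14.9 kb from Ccnd1, the gene of cyclin D1) held 28, 29 and 16 calls at MS in SV129, WT and cKO, with an open site of 196, 217 and 171 bp. At RS it held 0, 1 and 0 calls and no open site, and in sperm none in any list. It was thus marked in all backgrounds at MS and almost empty at RS. The cluster chr8:4677267-4678856 (1590 bp, over the long non-coding RNA gene Gm6410, 44.7 kb from Zfp958) held 31, 17 and 10 calls at MS, 16, 5 and 0 at RS, and 5, 0 and 10 in sperm. The cluster chr6:3182497-3184246 (1750 bp, 188 kb from Samd9l), which is among the 40 open at ES, held 33, 31 and 21 calls at MS, 13, 8 and 5 at RS, and 4, 0 and 10 in sperm. In these last 2 the cKO sperm list had more calls than either intact list.

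Next come clusters open in both intact lists at MS and RS and in no cKO list at any stage, of which there were 113. This count is for distal clusters alone, so it does not show whether the state is more common there than at other clusters. The widest, chr4:16071457-16073196 (1740 bp, 49.5 kb from Ripk2, a kinase of innate immune signalling), held 20, 22 and 6 calls at MS and 10, 14 and 0 at RS in SV129, WT and cKO. At chr12:93017727-93018886 (1160 bp, 123 kb from Gm40892) the counts were 13, 10 and 9 at MS and 15, 16 and 0 at RS. At chr8:107205107-107206376 (1270 bp, over the long non-coding RNA gene 4930517G24Rik, 17.6 kb from Cyb5b) they were 15, 14 and 2 at MS and 1, 2 and 0 at RS. In these 3 the cKO list held no call at RS. The rest of the 6 widest kept some in cKO at RS: chr14:68692752-68693886 near Adam28 held 5, 3 and 4 calls, chr6:149361952-149363146 near Resf1 held 4, 9 and 2, and chr12:119565897-119567266 near Macc1 held 0, 2 and 2. The absence of open sites in cKO is what chose these clusters.

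**Figure D4:**
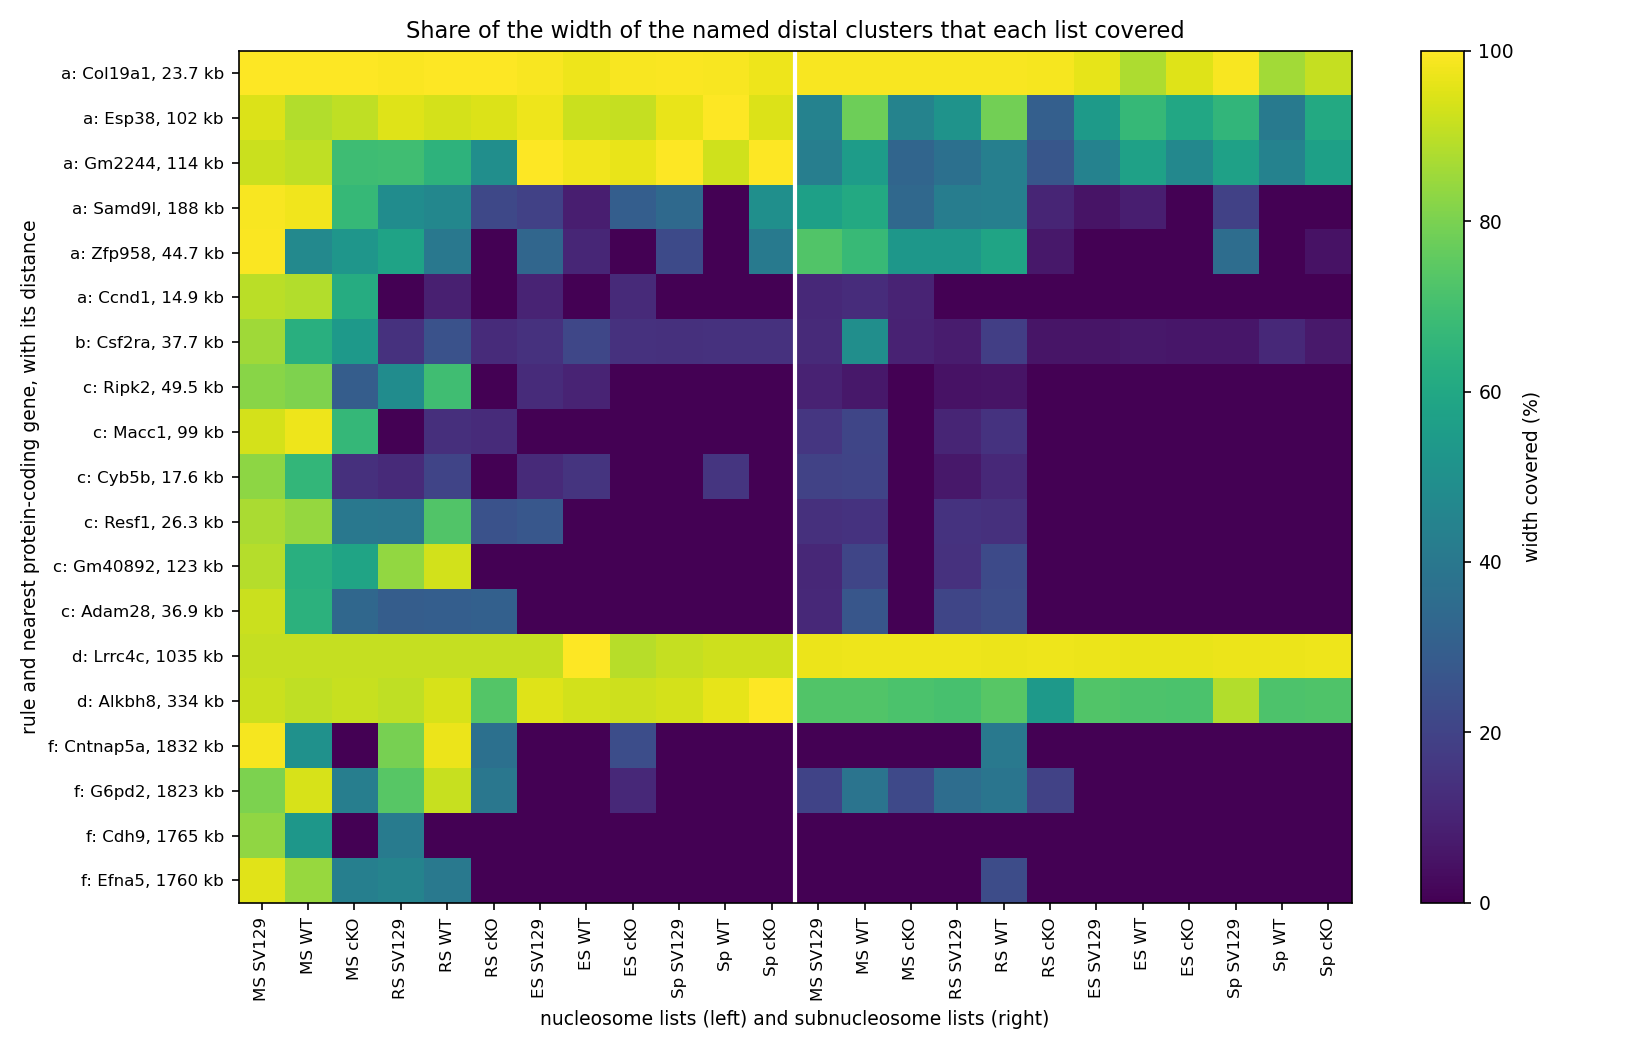
Percent of each named distal cluster's width that each list covered (colour), with clusters in rows by nearest protein-coding gene and distance and the 24 lists in columns. Letters give why a cluster is named: a, most SV129 MS calls; b, open in all MS lists and in intact sperm; c, open in intact MS and RS and in no cKO list; d, in the most nucleosome lists; f, farthest from a gene. The clusters near Col19a1, Esp38, Gm2244, Lrrc4c and Alkbh8 are covered in all columns, and those of letter c are dark in the cKO columns after RS.

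Outside the 40, 21 distal clusters had a nucleosome call and 20 an open site in both intact sperm lists. The widest open in both, chr7:111122267-111123266 (1000 bp, over 1700012D14Rik, 39.2 kb from Eif4g2), held 0, 4 and 7 sperm calls in SV129, WT and cKO and was open in SV129 and WT sperm. Several of the open ones lay on non-coding RNA genes: Dancr, Snhg5 (a host gene of small nucleolar RNAs), Chaserr, 1700096K18Rik, D130051D11Rik and 5430416N02Rik. Dancr, in a cluster of 780 bp 24.3 kb from Usp46, was open in sperm of all 3 backgrounds. Snhg5, in a cluster of 660 bp 24.7 kb from Zfp949, was open in SV129 and WT sperm. Several of those with calls but no open site lay among zinc finger genes of chromosome 4 that have near-identical copies; the cluster chr4:146484217-146484896 (680 bp, over Vmn2r-ps16, 14.8 kb from Zfp992) held 15, 5 and 7 sperm calls. These were looked up after the sperm values were seen.

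Clusters on non-coding promoters differed from other distal clusters in their open sites. Of the 215, 71.2% (64.8 to 76.8) were open in both intact MS lists, against 46.6% of the 607 within non-coding genes and 44.1% of the 1709 without a gene. In cKO at MS the shares were 58.6%, 31.6% and 31.3%. At RS open sites in both intact lists were present in 52.1%, 24.5% and 23%, and in cKO in 11.2%, 5.27% and 4.51%. In sperm SV129 was open in 11.2%, 4.78% and 2.98%. Nucleosome calls in both intact RS lists were present in 44.2%, 32.5% and 28.7%, a smaller gap. Median widths were 470, 430 and 420 bp. Of 5565 long non-coding RNA genes that lie more than 10 kb from protein-coding genes 512, 9.2%, overlapped a distal cluster, and of 5158 pseudogenes 102, 1.98%. The pseudogenes are shorter, with a median of 937 bp against 9452 bp.

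Around the starts of these non-coding genes (246 windows of 226 genes), SV129 MS calls peaked 175 bp before and 125 bp after the start, at 58.9 and 76.4 per 100 starts and 50 bp, with 36.6 at 25 bp before it. Open-site centres peaked at 25 bp before the start, at 23.2, 25.2 and 18.7 in SV129, WT and cKO. WT calls peaked at the same places, at 63.8 and 74.8, and were lowest between them 25 bp after the start, at 38.6. In cKO, which the rule did not use, calls peaked there at 38.6 and 47.2. The start thus lay between the peaks of calls in each background. Since these windows are ones that a cluster overlaps, the density of SV129 and WT calls around the starts follows in part from the choice. At RS the cKO calls reached no more than 6.5.

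The windows were searched on both strands for 5 fixed motifs; hits of different motifs may overlap. The core AACNGNC bound by MYB factors, which include Mybl1 (A-MYB), a regulator of meiotic genes, was found in 125 of 246 windows, 50.8%. It was found in 33.9% of 5592 other non-coding windows more than 10 kb from protein-coding genes, 32% of protein-coding windows and 32.7% of all 31396 windows. The cyclic AMP response element TGACGTCA was found in 2.85%, against 0.697% of the other distal windows and 2.3% of protein-coding ones. The core motif of CTCF was found in 2.03%, 0.429% and 0.682%, and the RFX motif GTTGCCATG in 1.22%, 0.966% and 0.682%. The motif of NRF1 was found in none of the 246 windows, in 0.0715% of the other distal windows and in 1.34% of protein-coding ones. The windows were also richer in G and C than the other distal ones, with a median of 51.7% against 46.3%, and held a median of 7 against 3 CpG; the part of base content in the motif shares was not tested.

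By state, the MYB core was found in 8 of 32 windows, 25%, in clusters open in both intact lists at MS and RS and in cKO at RS. It was found in 41 of 77 (53.2%) where cKO was open at MS but not at RS, in 12 of 18 (66.7%) where cKO was open at neither, and in 26 of 53 (49.1%) where the intact lists were open at MS but not both at RS. In windows of clusters without any open site at MS it was found in 25 of 43, 58.1%. The median CpG number was 8.5, 8, 7, 8 and 6 in the same order. Of the printed promoters, 2310015A10Rik, Gm36128 and 1700049E15Rik hold 1 MYB core each, and Chaserr, 1700096K18Rik and A330032P22Rik hold none.

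Of 241 miRNA genes more than 10 kb from protein-coding genes, 6 overlapped a distal cluster, and 5 of these matched a mature sequence. The mature sequences of the 3 whose clusters were open at MS in all backgrounds are shown from RefSeq (GRCm38.p6), with the seed, bases 2 to 8, in capitals; no seed is shared among them.
miR-9-5p: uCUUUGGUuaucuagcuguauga
miR-9-3p: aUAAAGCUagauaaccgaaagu
miR-154-5p: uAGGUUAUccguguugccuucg
miR-154-3p: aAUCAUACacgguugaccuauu
miR-496a-5p: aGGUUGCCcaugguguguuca
miR-496a-3p: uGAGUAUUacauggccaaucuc

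The arms of miR-9 come from Mir9-3 (chr7:79505264-79505353), a miRNA known for its role in neural development. Its cluster, chr7:79504627-79505406 (780 bp, 36.7 kb from Polg), held 11 SV129 and 5 cKO calls at MS and 6, 4 and 2 calls at RS in SV129, WT and cKO. Mir154 (chr12:109738433-109738498) and Mir496a (chr12:109739119-109739197) lie in 1 cluster, chr12:109738057-109739276 (1220 bp, 134 kb from Rtl1), within the imprinted Dlk1-Dio3 domain. That cluster held 14 calls at MS in SV129 and in cKO, and 1, 2 and 0 calls at RS. The nearby Mir377 lies in a cluster of 370 bp that was open in no MS list and had no RS call.

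Shares varied with the distance to protein-coding genes in some lists. In SV129 sperm 6.62% (4.98 to 8.74) of clusters at 20 to 50 kb and 2.12% (1.19 to 3.75) at 50 to 100 kb were open, and cKO sperm calls were present in 14.4% and 6.92%. Open sites in both intact MS lists were present in 51.6% of clusters at 10 to 20 kb and in 42.9% beyond 500 kb. Nucleosome calls in both intact RS lists were present in 27.7% to 32.3% of clusters in the 5 classes up to 500 kb and in 55.5% (48.2 to 62.5) of the 182 beyond it. Without the clusters open at ES the shares were 54% of 176 beyond 500 kb and 29.1% of 2505 nearer. Each intact list showed it, with 60.8% against 41.6% in SV129 and 71% against 43.8% in WT, and cKO had 23.3% against 15.9%. Open sites at RS were present in 29.5% against 26.5% in SV129 and 7.39% against 3.95% in cKO, whose intervals overlap, and in 51.1% (43.8 to 58.4) against 38.7% (36.8 to 40.6) in WT. MS calls in cKO were present in 74.4% against 72.4%. The farthest distal clusters thus held nucleosome calls at RS more often in all 3 lists, and open sites more often in WT. The distance classes were compared after their values were seen.

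**Figure D5:**
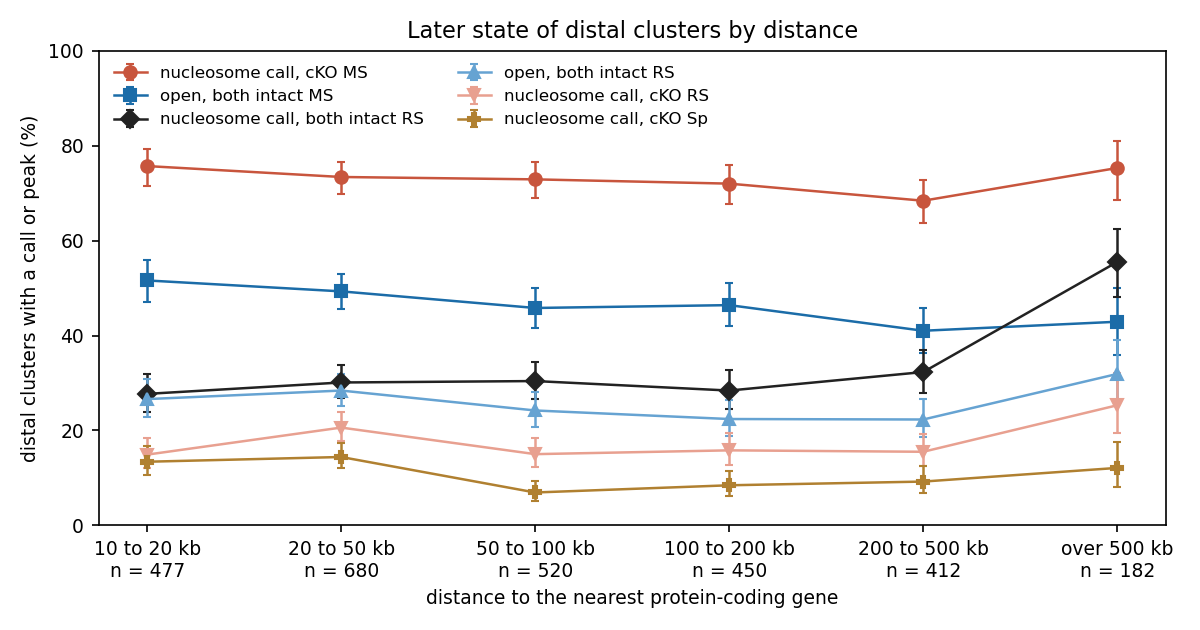
Share of distal clusters in percent (vertical axis) with a call or peak in 6 list combinations, by class of distance to the nearest protein-coding gene (horizontal axis, with the number of clusters), with Wilson 95% intervals. The black line, nucleosome calls in both intact RS lists, is at 55.5% beyond 500 kb and at 27.7% to 32.3% nearer.

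The 4 farthest clusters were small. The cluster chr1:113852507-113852846 (340 bp, 1832 kb from Cntnap5a) held 3, 2 and 0 calls at MS and 4, 7 and 2 at RS in SV129, WT and cKO. The cluster chr5:59985817-59986296 (480 bp, over 4933402J10Rik, 1823 kb from G6pd2) held 5, 6 and 3 calls at MS and 4, 7 and 3 at RS and was open in all 3 backgrounds at both stages. Those 1765 kb from Cdh9 and 1760 kb from Efna5 held 1, 0 and 0 and 1, 4 and 0 calls at RS.

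The nearest protein-coding genes of the distal clusters numbered 1447, 7% of 20665. Nearness says nothing of regulation. Camk1g, a calmodulin-dependent kinase, was nearest to the most clusters, 22, of which 6 were open in both intact MS lists, 17 had a cKO MS call and 2 had calls in both intact RS lists. Adcyap1, a neuropeptide gene, followed with 19 (1, 14 and 7), then Atp23 with 15 (10, 10 and 3) and Zfp516 with 14 (11, 10 and 3). Cbln2 had 13 (1, 12 and 5). Adam6a had 12 (1, 7 and 2), several of them over immunoglobulin heavy chain segments. The open share thus ranged from 1 of 19 near Adcyap1 to 11 of 14 near Zfp516.

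Among fixed gene lists, 33 of 110 developmental transcription factor genes, 30%, were the nearest gene of a distal cluster, against 7% of all genes. Their 62 clusters were most numerous near Sox5 (6), Sox17 (5), Isl1 (4) and Runx1 (4). Of the 62, 29 (46.8%) were open in both intact MS lists, 42 (67.7%) had a cKO MS call and 13 (21%) had calls in both intact RS lists, against 46.9%, 72.8% and 31.5% of all distal clusters. Of 23 spermatogonial and stem cell genes 5 were nearest genes (21.7%), among them Sox2, Gfra1, the receptor for GDNF, and Id4. Of 51 spermatid genes 3 (5.88%) were, among them Odf1, an outer dense fibre gene of the sperm tail, with 3 clusters. Of 38 meiosis genes 2 (5.26%) were, Hormad2 and Trip13. Of 24 genes listed for the piRNA pathway 1 was, Tdrd3, whose part in that pathway these data do not show. Of 40 chromatin regulators 1 was, Dnmt3a. The length of distal sequence around each gene was not taken into account.

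Of the distal clusters, 637 formed 265 loci in which neighbours lay within 10 kb, while the median gap between neighbours was 161 kb. The largest locus, chr5:149803797-149835736 near B3glct, held 10 distal clusters, of which 3 were open in both intact MS lists, 8 had a cKO MS call and 0 had calls in both intact RS lists. By chromosome, distal clusters numbered 4.11 per Mb of distal sequence on chromosome 19 and 1.22 on chromosome 3. The share open in both intact MS lists ran from 38% on chromosome 7 to 60.8% on chromosome 10.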

How the data were processed

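Each group's nucleosome list and subnucleosome list were used as deposited, 24 lists in all. They are BED lists whose only measurement is a score per interval. The deposited score of nucleosome calls is below 0.005 with unstated direction and ranked no call; the score deposited with WT and cKO subnucleosome peaks has an unstated scale, and that of SV129 is 0 throughout. Per the submitters' processing notes, STAR 2.5.2a, MACS2 2.1.0.20140616 and the build GRCm38 (mm10) were used, with no role given. The classing of fragments, the calling and the combining of replicates are not given in the sources used for this work, and WT and cKO peak names carry the number of 1 library only.

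Calls on chromosomes 1 to 19 were joined and filtered as described above with Python 3.11.15, numpy 2.4.6 and pandas 2.3.3; an overlap of 1 bp counted as presence. Gene positions, promoter windows and miRNA sequences came from RefSeq (GRCm38.p6), without windows on chromosome 18, and with 20665 protein-coding and 26377 other genes. Gene ends were taken 500 bp to either side. The members of each set and the gene lists were chosen with earlier results of these data known. Named clusters were those with the most SV129 calls, the widest of fixed states, those in the most lists and those farthest from genes. The widest cluster of the first promoter state is not reported here. The counting was tested on simulated regions. No replicate values, genome sequence or read depth were used here, so intervals cover counting error only. The alternatives tried were the joining gap, the minimum width, the distance, the genes used, the list that sets the regions, the overlap and subsets by score.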

Additional observations from a re-analysis of the deposited data

Results flagged for a closer look

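From RS to ES the share of distal clusters with a nucleosome call was lower by 23.1 percentage points in SV129 (change -23.1) and by 28.8 in WT (change -28.8), while in cKO it was higher by 1.62. This difference in direction between backgrounds was not tested, since each rests on single lists, and the cKO share started lower, at 17.3% against 43.6% and 46.1%.

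The sex chromosomes were outside the choice of clusters. The same rule applied there gave 46 distal clusters of 174 supported clusters on chromosome X and 15 of 20 on chromosome Y. Of the 46, 18 were open in both intact MS lists, 32 had a cKO MS call and 3 had calls in both intact RS lists. Of the 15, the numbers were 10, 11 and 3. Repeated sequence on chromosome Y makes its values uncertain.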

How the results depend on the processing

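The order of cKO and the share present in both intact lists held in 9 of 9 settings for each of 4 comparisons: cKO was lower for open sites at MS (by 11.4 to 15.5 percentage points), nucleosome calls at RS (14.2 to 16.7) and open sites at RS (18.4 to 28.5), and higher for nucleosome calls in sperm (4.59 to 11.9). For sperm calls cKO also lay above the higher of the single intact lists in 9 of 9 settings (by 2.87 to 8.82). The 9 settings include the reported one and share many clusters, so they are not independent. In each of them the clusters came from SV129 and WT calls at MS and never from cKO calls. The part of that choice in the order was therefore not tested. The levels moved more: of 85 recomputed values, 53 moved beyond the counting interval and 32 did not; the cause was not tested. In the lists below the values are the number of clusters, then in percent open MS in both intact lists, open MS cKO, nucleosome MS cKO, nucleosome RS both intact, nucleosome RS cKO, open RS both intact, open RS cKO, nucleosome sperm both intact, nucleosome sperm cKO and open sperm SV129. As reported they were 2721, 46.9, 33.1, 72.8, 31.5, 17.3, 25.6, 5.07, 2.06, 10.9 and 3.9. With only overlapping or abutting calls joined they were 943, 54.4, 42.5, 79.3, 36.7, 21, 34.4, 10.9, 5.2, 14.8 and 9.33. With a minimum width of 450 bp they were 1145, 62.4, 47.5, 83.9, 39, 22.7, 36, 7.51, 2.45, 14.4 and 6.38.

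Beyond 50 kb from genes 1564 clusters remained, with 44.4% open at MS in both intact lists, 31.1% in cKO, 8.57% with a call in cKO sperm and 2.56% open in SV129 sperm. With the distance taken from every gene of the table, non-coding ones included, there were 1387 clusters, with 44.8% and 31.3% open at MS, 15.2% with a cKO call at RS, 23.6% open at RS in both intact lists, 1.37% and 9.08% with a sperm call in both intact lists and in cKO, and 2.6% open in SV129 sperm. With WT regions supported by SV129, open MS in both intact lists was 48.8%, nucleosome MS cKO 70.9% and open RS in both intact lists 28.4%. With an overlap of 75 bp, open MS was 42% and 30.6% (cKO), nucleosome MS cKO 71% and open RS in both intact lists 23.1%. With the upper 50% of WT and cKO peaks by score, open MS was 35.8% and 20.3% (cKO) and open RS 22.3% and 2.94% (cKO). Without calls at each list's most common score, nucleosome MS cKO was 67.6%, RS 28.2% and 11.5% (cKO), and cKO sperm 6.43%.

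Leaving out the 40 clusters open at ES, chosen after seeing the data, gave 4.18% open in cKO at RS, 0.783% and 9.66% with a sperm call in both intact lists and in cKO, and 2.69% open in SV129 sperm. Open SV129 sperm has no value by score, since its list has 1 score. No paired analysis was possible because each group has 1 list without values per replicate, and for the same reason no replicate could be left out. Read depth is unknown, so an absent call may lie below detection.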
